A study of Mus musculus with 1931 samples.

Results

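*Hhex*, *Lhx1*, *Sfrp1*, *Sfrp5* and *Dkk1* were followed as 5 regulators of the anterior visceral endoderm among the 20999 genes of the deposited table. They were named as a gene set from their roles in the embryo, with earlier results of these data known. All 5 have a row in the table. Their levels were read in cells with at least 2500 genes above 0 TPM (a share of all transcripts of a cell that is corrected for transcript length), which 1406 of 1931 wells passed. The 3D cells came from Rosette-to-Lumen (RtL) stage embryoids, made by mixing 3 mouse embryonic stem cell (ESC) lines and reprogramming 2 of them in co-culture with 2 µg/ml doxycycline (DOX) for 3 days, with 24 h without DOX before and after. Hand-picked structures were pooled and sorted, so the 3D material is 1 sample and its plates 3, 4 and 5 are technical splits.

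The epiblast-like (Epi) cells came from Kermit ESCs, which carry GFP under the *Oct3/4* promoter and received no inducible factor. The visceral endoderm-like (VE) cells came from iGATA6-mCherry ESCs, a lentiviral line with DOX-inducible *Gata6*, and were sorted by mCherry. The extraembryonic ectoderm-like (ExE) cells came from 5-Factor ESCs with DOX-inducible *Cdx2*, *Tfap2c*, *Eomes*, *Gata3* and *Ets2*, and were sorted by the surface protein CD40. The 2D counterparts were Kermit ESCs in 2i/LIF medium (ESC), 5-Factor ESCs reprogrammed in TSC medium (iTSC) and iGATA6-mCherry ESCs reprogrammed in XEN medium (iXEN), each grown alone and represented by 1 culture. By the study's methods, iTSC and iXEN also received 2 µg/ml DOX for 3 days, followed by 24 h without it. The medium of iTSC held FGF4 and heparin, and no DOX is described for the 2D ESC. The labels do not name the compartment of a well. Plate columns 1 to 8 were read as Epi, 9 to 16 as VE and 17 to 24 as ExE. Of the 1406 kept cells 22.4% were VE, 22.3% Epi and 25.1% ExE, while iXEN and iTSC made up 10.03% each and ESC 10.1%.

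The visceral endoderm is the epithelium that wraps the epiblast of the early mouse embryo. Its anterior part secretes antagonists of Wnt and Nodal signals and so shields the adjacent epiblast from posterior fates, which sets the anterior-posterior axis. *Hhex* and *Lhx1* encode homeodomain transcription factors of this tissue. *Sfrp1* and *Sfrp5* encode secreted frizzled-related proteins that bind Wnt ligands, and *Dkk1* encodes a secreted protein that blocks the Wnt co-receptors Lrp5 and Lrp6.

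Markers were used to check the plate columns. In the VE columns *Gata4* and *Cubn* were found in 98.1% of cells each and *Amn* in 94.3%, whereas the yolk-sac genes *Ttr*, *Apoa1* and *Afp* were found in 9.84%, 3.49% and 0.635%. Genes of parietal endoderm, the other derivative of primitive endoderm, were abundant there too. Their summed level was 90.97 TP10k against 140.8 in iXEN. Of these genes 8 of 10 were in at least 10% of VE cells, as were 9863 of all 20999 genes. *Pou5f1*, an Epi marker, was found in 90.8% of VE cells at a mean of 4.53 TP10k. By summed marker levels, the check planned first, 95 VE cells (30.2%) and 42.8% of ExE cells fell under another list. Of these VE cells 94 fell under the Epi list. A check with each marker scaled by its SD was added after this was seen. On it 4 VE cells (1.27%), 2 Epi cells (0.637%) and 51 ExE cells (14.4%) carried the markers of another block most strongly. Of those 51, 48 were led by VE markers. Cells are called led by a list on the scaled check unless stated. The ExE columns therefore held cells that go against their block, and the levels of the members in ExE are given with and without them. The median number of genes above 0 per cell was 5348 in VE (6622, 4913 and 4957 on plates 3, 4 and 5), 4823 in Epi, 5396 in ExE, 8699 in iXEN, 8537 in iTSC and 9093.5 in ESC. The files hold no read numbers, so depth is unknown beyond this. The level of a gene is given in TP10k, the TPM of a cell rescaled to sum to 10000, which is per length of transcript. With 1 sample per condition no test between conditions exists. Intervals on shares are exact 95% binomial ones and cover counting error only. Where no cell held a gene, the limit given is instead 3 cells of the total.

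The promoters of *Dkk1* and *Sfrp5* are shown because these genes had their highest levels in the *Gata6*-induced endoderm cells, VE and iXEN, and were, of the 4 members in the promoter table, those with a match to any of 6 kinds of motif. *Hhex* is shown beside them because it was also highest in VE cells. Each run spans 250 bases before to 50 after the RefSeq gene start (GRCm38.p6), 5′ to 3′ on the gene's strand, and capitals mark matches.
Dkk1 (chr19:30549447-30549746, minus strand): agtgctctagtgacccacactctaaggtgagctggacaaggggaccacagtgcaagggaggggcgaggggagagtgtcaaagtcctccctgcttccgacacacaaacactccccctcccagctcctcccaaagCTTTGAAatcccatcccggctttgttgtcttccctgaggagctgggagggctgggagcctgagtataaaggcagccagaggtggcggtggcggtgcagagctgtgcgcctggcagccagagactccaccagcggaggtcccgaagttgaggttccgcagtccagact
Sfrp5 (chr19:42202203-42202502, minus strand): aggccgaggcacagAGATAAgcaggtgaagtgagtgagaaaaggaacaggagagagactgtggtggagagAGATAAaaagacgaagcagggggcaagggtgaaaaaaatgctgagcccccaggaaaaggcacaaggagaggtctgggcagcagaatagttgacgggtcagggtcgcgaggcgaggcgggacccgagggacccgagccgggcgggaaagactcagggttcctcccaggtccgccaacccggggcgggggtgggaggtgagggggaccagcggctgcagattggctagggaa
Hhex (chr19:37434591-37434890, plus strand): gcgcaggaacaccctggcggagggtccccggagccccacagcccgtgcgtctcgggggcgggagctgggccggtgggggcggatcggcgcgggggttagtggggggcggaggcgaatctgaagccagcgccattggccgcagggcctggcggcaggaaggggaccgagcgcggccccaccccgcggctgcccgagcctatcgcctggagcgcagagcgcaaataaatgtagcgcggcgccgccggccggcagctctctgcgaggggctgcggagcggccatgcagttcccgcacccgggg

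The *Dkk1* run held 1 TCF/LEF word (CTTTGAT or CTTTGAA, both strands), at chr19:30549607-30549613. This lies before the RefSeq start but inside the gene as Gencode vM21 places it, at 30545863 to 30549665. A TCF/LEF word occurred in 8.65% of 32851 promoters of this length. The *Sfrp5* run held the GATA word AGATAA at chr19:42202483-42202488 and again at chr19:42202427-42202432. A GATA word (AGATAA or AGATAG or TGATAA or TGATAG) on either strand was in 29.8% of all promoters. No match to these or to TAATTA (homeodomain, 5.29% of promoters), TAATCC (OTX, 7.06%), AGGTGTGA (T-box, 1.28%) and TGTTTAC or TGTTTGC (forkhead, 8.48%) was found in the *Hhex* or *Lhx1* run. Matches are descriptions of the letters and were not tested as binding sites. *Sfrp1* was not in the promoter table.

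*Hhex*, which Gencode vM21 places at 37434810 to 37440731 of chromosome 19 (GRCm38), was highest in VE cells. Its mean was 0.307 TP10k in VE, with 0.358, 0.235 and 0.327 on plates 3, 4 and 5. Epi cells averaged 0.0799 (0.0478 to 0.124 on single plates) and ExE cells 0.0471 (0.0360 to 0.0626), or 0.0389 in those led by ExE markers. The plate means of VE thus lay above all plate means of the other blocks, 3.84-fold over Epi (2.88 to 4.92 on single plates) and 6.52-fold over ExE (5.73 to 7.81). Among the 2D cultures, ESC averaged 0.140, iXEN 0.120 and iTSC 0.0227 TP10k. VE cells exceeded their 2D counterpart iXEN by 2.56-fold (1.97 to 3.00 over the plates). In every comparison with a 2D culture each plate is set against the same culture mean. Such ranges therefore leave out the spread of the culture.

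The share of cells with *Hhex* gave another order than its level. It was found in 44.1% of VE cells (95% CI 38.6% to 49.8%), in 49.6% of iXEN (95% CI 41.1% to 58.2%) and in 73.9% of ESC (95% CI 65.9% to 80.9%). In the cells with *Hhex* the median level was 0.572 TP10k in VE, 0.165 in iXEN and 0.140 in ESC. VE cells therefore held the gene at a higher level in no larger a share of cells, and their median number of genes was lower than in both 2D cultures. Among VE cells the share rose with the number of genes per cell, from 32.4% to 47.1% and 52.8% over 3 equal groups of the cells of each plate, while the mean stayed between 0.285 and 0.336 TP10k.

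*Lhx1*, on chromosome 11 from 84518284 to 84525535, was a rare transcript. It was found in 29 VE cells (9.21%, 95% CI 6.25% to 12.95%) and in 0 Epi cells, which allows a share of up to 0.955%. In VE it averaged 0.0313 TP10k, with 0.0381, 0.0253 and 0.0302 on plates 3, 4 and 5, and 5 cells gave 42.2% of the sum. The iXEN cells had a similar share, 7.09% (95% CI 3.45% to 12.7%), at a mean of 0.00515. The level in VE was 6.08-fold that of iXEN (4.91 to 7.40 over the plates), on 29 and 10 cells with the gene. iTSC and ESC, with 2 and 3 cells, averaged 0.000602 and 0.000184 TP10k.

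In the ExE columns *Lhx1* averaged 0.0248 TP10k, but plate 4 gave 0.0694 and plates 3 and 5 gave 0.00243 and 0.00287. A single cell at 6.33 TP10k made up most of the plate 4 value. The ratio of VE to ExE was accordingly 1.26, with 0.364 to 15.7 on single plates and the opposite sign on plate 4. Of the *Lhx1* sum of these columns, 93.2% lay in the 48 cells led by VE markers, where 7 cells held the gene. Of the far larger number of cells led by ExE markers 2 held it (0.662%).

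**Figure D1:**
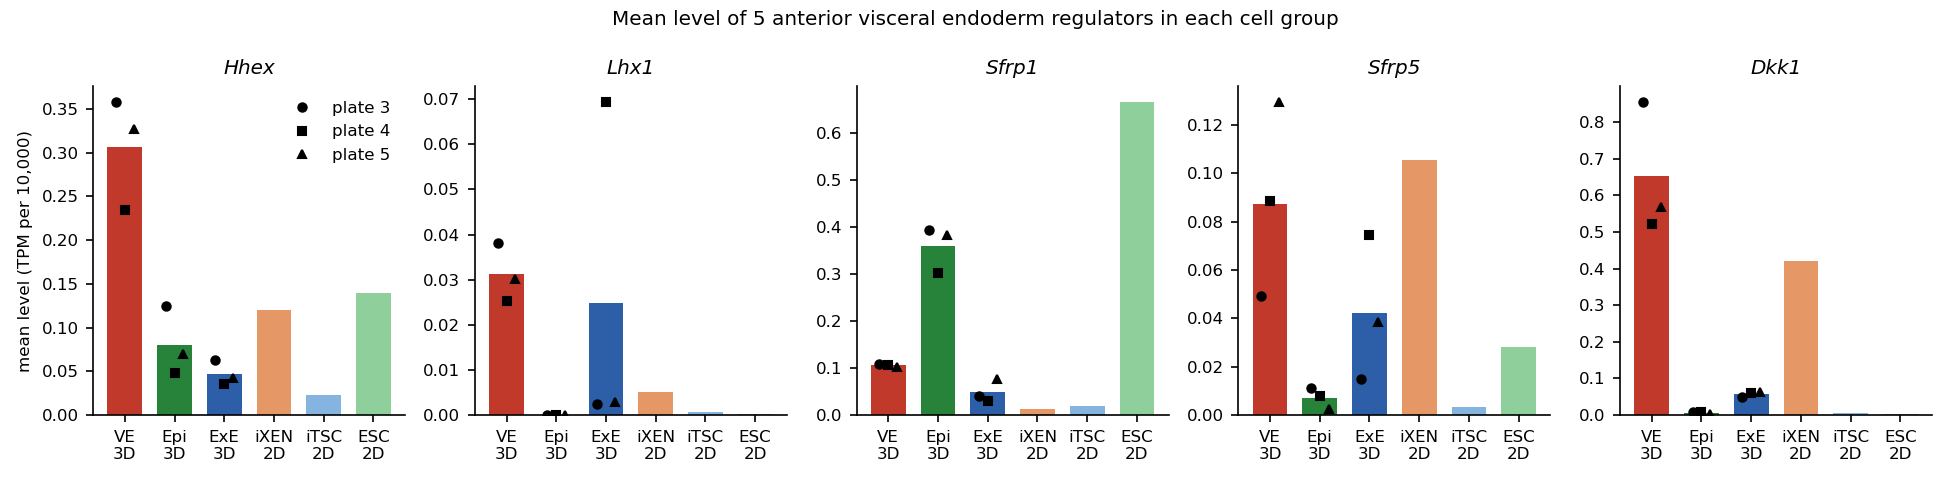
Mean level (bars, TPM rescaled to 10000 per cell, linear axis from 0, a separate scale for each gene) of the 5 genes in the 3 blocks of 3D columns and the 3 cultures in 2D, with the means of plates 3, 4 and 5 as symbols. *Hhex* and *Dkk1* were highest in VE on every plate, *Sfrp1* was highest in ESC and Epi, and the *Lhx1* bar of ExE rests on plate 4.

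*Sfrp1*, on chromosome 8 from 23411502 to 23449632, followed the pluripotent cells and not the endoderm. It was highest in ESC, at 0.666 TP10k and in 98.6% of cells (95% CI 95.005% to 99.8%), followed by Epi at 0.359 (0.392, 0.303 and 0.383 on plates 3, 4 and 5) and 59.2% of cells. VE came next with 0.106 TP10k and the narrowest plate range of the members, 0.102 to 0.109. ExE, iTSC and iXEN averaged 0.0489, 0.0187 and 0.0121, and ExE-column cells led by ExE markers 0.0454. VE and Epi plates did not overlap, with Epi 3.39-fold higher overall.

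Against iXEN, however, the level of *Sfrp1* in VE was 8.76-fold higher (8.46 to 9.03 over the plates). This was the largest ratio of VE to iXEN among the 5 genes. Its range shows the spread of the VE plates alone. The iXEN mean rests on 23 cells with the gene, and 5 cells gave 51.4% of its sum. The gene was found in 36.5% of VE cells (95% CI 31.2% to 42.1%) against 16.3% of iXEN (95% CI 10.6% to 23.5%), although iXEN cells had more genes per cell. 2 VE cells led by Epi markers held 5.57% of the *Sfrp1* sum of VE, and without the 4 VE cells led by another list the mean was 0.101 TP10k.

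*Sfrp5*, on chromosome 19 from 42197971 to 42202252, was confined to few cells at comparatively high levels among the VE cells, but not in iXEN or ESC. In VE it was found in 24 cells (7.62%, 95% CI 4.94% to 11.1%), against 6 Epi cells (1.91%). The mean of VE was 0.0872 TP10k, with 0.0490, 0.0884 and 0.130 on plates 3, 4 and 5, and 5 cells carried 59.9% of the sum. iXEN averaged 0.106 TP10k in 26.2% of cells (95% CI 19.2% to 34.3%). The ratio of VE to iXEN was 0.826, below 1 on plates 3 and 4 and above 1 on plate 5 (0.464 to 1.23), so these neighbours in the order did not differ beyond the plate spread. Cells with the gene had a median of 0.502 TP10k in VE and 0.155 in iXEN.

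In ESC *Sfrp5* was found in 38.03% of cells (95% CI 30.02% to 46.5%) but averaged only 0.0283 TP10k, as the median cell with the gene had 0.0490. Epi and iTSC averaged 0.00719 and 0.00318. The ExE columns averaged 0.0423 TP10k from 11 cells, and all 11 lay among the 48 cells led by VE markers. There *Sfrp5* was found in 22.9% of cells at a mean of 0.311. In the ExE-column cells led by ExE markers it was found in 0, which allows a share of up to 0.993%.

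*Dkk1*, on chromosome 19 from 30545863 to 30549665, was the most abundant member in VE and the one most restricted to endoderm. It averaged 0.653 TP10k in VE, with 0.856, 0.520 and 0.568 on plates 3, 4 and 5, and was found in 66.3% of cells (95% CI 60.8% to 71.6%). iXEN averaged 0.419 and held it in 74.5% of cells (95% CI 66.4% to 81.4%). All other groups lay far lower, with 0.0567 in ExE, 0.00645 in Epi, 0.00510 in iTSC and 0.00253 in ESC. VE exceeded Epi by 101.3-fold (72.7 to 147.7 on single plates) and iXEN by 1.56-fold (1.24 to 2.04). Without the cells led by another list, the ExE columns averaged 0.0229 TP10k, and 5.96% of the remaining cells held the gene.

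The level of *Dkk1* varied widely from cell to cell. VE cells with the gene ran from 0.0374 to 9.07 TP10k, with quartiles of 0.366 and 1.31. Its share rose from 50.5% to 66.3% and 82.1% over 3 equal groups of VE cells by number of genes. The remaining cells listed at 0 were thus more frequent where fewer genes were seen.

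**Figure D2:**
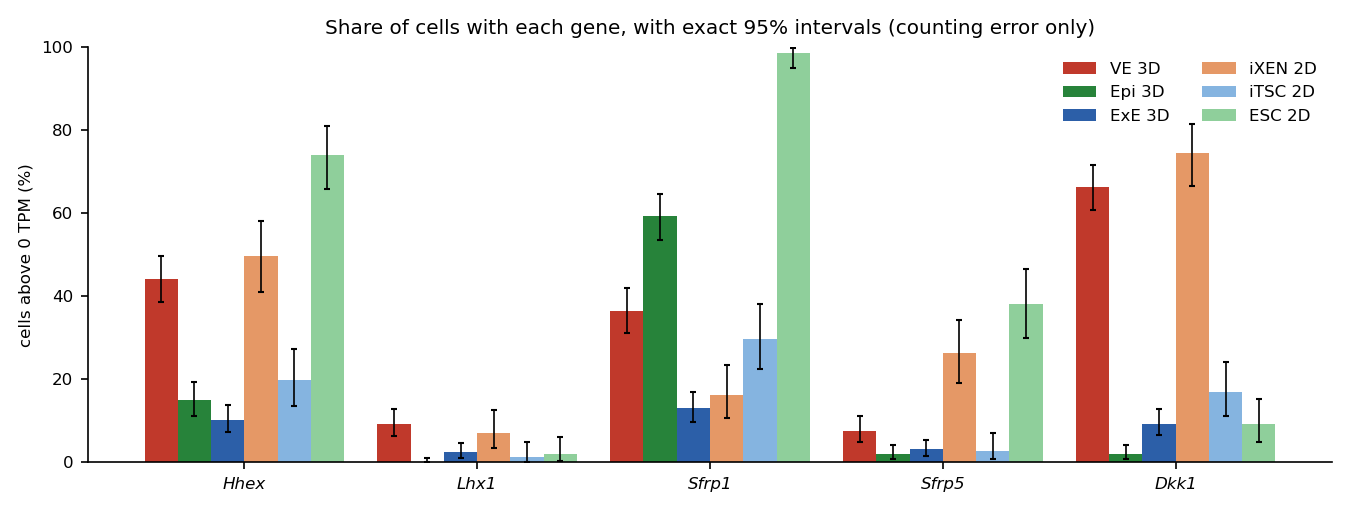
Share of cells above 0 TPM (vertical axis, percent) for each gene, with exact 95% intervals that cover counting error only, in 3D VE, Epi and ExE columns and 2D iXEN, iTSC and ESC. *Dkk1* was frequent in VE and iXEN alone, whereas *Sfrp1*, *Hhex* and *Sfrp5* were found in the largest share of cells in ESC, which also had the most genes per cell.

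**Figure D3:**
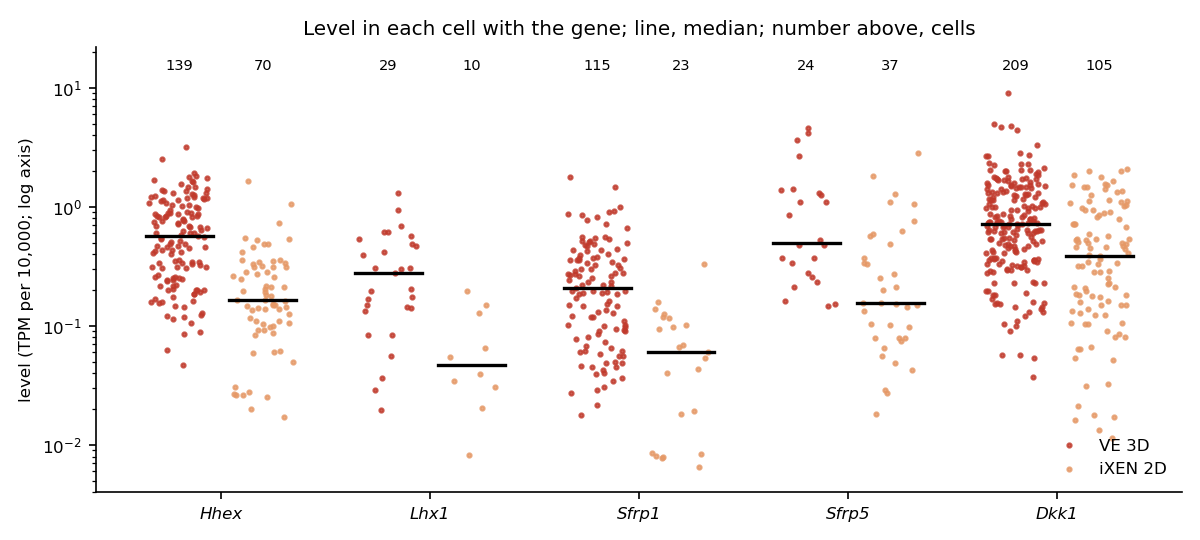
Level of each gene in the VE and iXEN cells above 0 (points, TPM rescaled to 10000 per cell, log axis), with the median as a line and the number of cells above. The medians of VE lay above those of iXEN for all 5 genes, in cells with fewer genes each.

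The medians over cells with a gene were higher in VE than in iXEN for all 5 members. They were 0.278 against 0.0473 TP10k for *Lhx1*, 0.207 against 0.0609 for *Sfrp1* and 0.720 against 0.387 for *Dkk1*, beside the values of *Hhex* and *Sfrp5* above. The lowest values in iXEN reached 0.0173 TP10k for *Hhex* and 0.0115 for *Dkk1*, below the lowest in VE of 0.0474 and 0.0374. iXEN cells thus listed weaker values above 0 than VE cells did, and the medians are set side by side with this difference in detection. How much of the difference it makes was not tested.

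To place the members among all genes, a gene was called where its mean was at least 2-fold higher, or at least 2-fold lower, in VE on all 3 plates, on log2(TP10k + 0.1), for genes that 10% or more of the cells of 1 of the 2 groups held. Against Epi, 6.13% of 10662 genes were called higher and 4.91% lower. Of the 3 members that passed the filter, *Hhex* (log2 difference 1.18, 1.03 to 1.33 on single plates) and *Dkk1* (2.82, 2.53 to 3.14) were called higher. *Dkk1* passed the filter through VE alone, being in 66.3% of VE cells against 1.91% of Epi and 9.35% of ExE. A lower call was hardly open to it, so its calls against Epi and ExE were partly set by the filter. *Sfrp1* was lower by a log2 difference of -1.16 and missed the call on 1 plate (-1.25 to -0.97). At a minimum of 1000 genes per cell *Hhex* was no longer called against Epi, and at a pseudocount of 1 no member was called higher against Epi or ExE. Against ExE, 2.81% of 10836 genes were called higher and 3.98% lower, and the same 2 of 3 members were higher, *Hhex* by 1.47 and *Dkk1* by 2.27. Without the cells led by another list 3.46% of genes were called higher against ExE and 4.30% lower, and again 2 members were called higher. Against iXEN, 0.416% of 12248 genes were called higher and 0.98% lower, and 0 of 4 members were called. *Hhex* and *Sfrp1* came closest, with log2 differences of 0.89 (0.61 to 1.06) and 0.88 (0.85 to 0.90). At this scale the pseudocount shortens the fold of a weak gene, so that the 8.76-fold ratio of *Sfrp1* remained under the call. The genes left out by the filter were *Lhx1* in all 3 comparisons and *Sfrp5* against Epi and ExE.

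Other genes of the tissue and pathway were read by lists. Of 10 further anterior visceral endoderm genes, 6 were in at least 10% of VE cells, as were 9863 of all 20999 genes. *Hesx1*, a homeodomain repressor, was called higher in VE against Epi, ExE and iXEN, at 0.828 TP10k and in 61.3% of cells against 0.233 TP10k in iXEN. *Foxa2*, a forkhead factor, was called higher against Epi and was in 56.5% of VE cells. Some defining genes were at or near 0 in VE. *Otx2* was found in 1 cell, *Cer1*, a secreted Nodal and Wnt antagonist, in 7 cells (2.22%), and *Gsc* in 0, which allows up to 0.952%. *Lefty1*, *Otx2* and *Nodal* were called lower against Epi, and *Eomes*, at 0.0834 TP10k in VE and 0.466 in ExE, lower against ExE. *Eomes* is also an inducible factor of the ExE line and an ExE marker, so the design partly set its call.

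Of 10 other Wnt antagonists, 1 was in at least 10% of VE cells, *Kremen1*, a receptor for Dickkopf proteins, in 24.8% at 0.0492 TP10k. *Sfrp2*, *Frzb* and *Dkk2* were in 0.952%, 0.635% and 1.59%, and *Wif1* in 0 cells. Of 12 Wnt receptors and co-receptors 5 passed 10%, led by *Lrp6*, the co-receptor bound by Dkk1, in 60% at 0.205 TP10k, against 0.202 in iXEN. The filter passed 2, 1 and 4 of the antagonists and 7, 8 and 8 of the receptors against Epi, ExE and iXEN, and 0 of these were called. Of 10 Wnt target genes, *Tcf7* was called lower against Epi. Of 8 endoderm factors 6, 6 and 7 passed the filter against Epi, ExE and iXEN. Called higher in VE were 6, 5 and 0 of them, beside 6.13%, 2.81% and 0.416% of all genes tested. Among those called were *Gata6*, the induced factor of the VE line, and *Sox17* and *Gata4*, which are also on the VE marker list. The median share of the list was 0.955% in Epi and 8.64% in ExE, so the design and the filter partly set these calls. Of 8 cofactors of LIM-homeodomain proteins and *Hhex*, 7 were in at least 10% of VE cells, and *Tle4* was called lower against Epi and ExE.

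Co-detection asks how often the members were found in the same VE cell. Of the VE cells 43 held none of the 5 genes, 100 held 1 and 110 held 2, whereas 52 held 3, 10 held 4 and 0 held all 5, which allows up to 0.952%. At least 2 were found in 54.6% of cells (95% CI 48.9% to 60.2%), with 73.9%, 42.99% and 45.4% on plates 3, 4 and 5. Plate 3 stood apart and also had the most genes per cell. Over 3 equal groups by number of genes the share was 40%, 57.7% and 66.04%, so both the plate and the number of genes moved with it. At least 3 were found in 19.7% of VE cells (95% CI 15.4% to 24.5%), with 32.4%, 7.48% and 18.6% on plates 3, 4 and 5, and in 12.7% without plate 3.

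**Figure D4:**
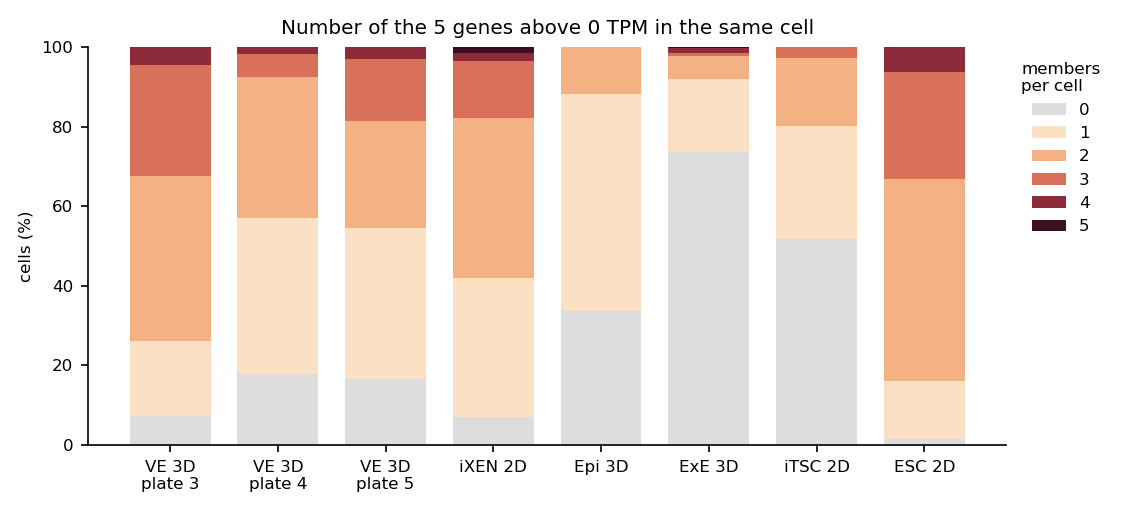
Share of cells (vertical axis, percent) with 0 to 5 of the genes above 0 TPM, for VE cells by plate and for the other groups. On plates 3, 4 and 5, 73.9%, 42.99% and 45.4% of VE cells held at least 2, against 58.2% of iXEN, 11.8% of Epi, 7.93% of ExE, 19.9% of iTSC and 83.8% of ESC.

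The most frequent states of VE cells were *Dkk1* alone (61 cells), *Hhex* with *Dkk1* (49 cells), and *Sfrp1* with *Dkk1* either with or without *Hhex* (34 cells each). In iXEN at least 2 members were found in 58.2% of cells (95% CI 49.6% to 66.4%), and 2 cells held all 5. ESC reached 83.8%, from *Hhex*, *Sfrp1* and weak *Sfrp5* rather than from *Dkk1*. Epi cells held at least 2 in 11.8% and ExE cells in 7.93%, which was 3.97% in the ExE-column cells led by ExE markers.

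Set against the product of their single shares, 7 of 10 pairs of members were found together in more VE cells than the product. On single plates this held for 5, 5 and 6 pairs. *Hhex* and *Lhx1*, the transcription factors, were together in 19 cells against a product of 12.8. *Lhx1* was found in 13.7% of the cells with *Hhex* (95% CI 8.43% to 20.5%) and in 5.68% of those without it (95% CI 2.76% to 10.2%), and these intervals overlap. The order was the same on plates 3, 4 and 5, with 13.2%, 8.57% and 19.4% against 6.98%, 4.17% and 6.56%. *Hhex* and *Dkk1* were together in 98 cells against 92.2, but on plates 3, 4 and 5 in 56, 20 and 22 against 52.7, 20.6 and 22.3. *Sfrp1* and *Dkk1* were together in 81 against 76.3, with 46, 15 and 20 against 41.8, 18.3 and 18.6 on these plates. The excess over the product thus lay on plate 3 for the first pair and on plates 3 and 5 for the second.

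*Sfrp5* and *Dkk1* went the other way. In VE they were together in 13 cells against a product of 15.9. On plates 3, 4 and 5 they were together in 3, 5 and 5 cells against 4.65, 5.30 and 5.57. *Dkk1* was in 54.2% of the 24 VE cells with *Sfrp5* (95% CI 32.8% to 74.4%). It was in 67.4% of the others (95% CI 61.6% to 72.7%). In iXEN the pair was together in 22 cells against 27.6. There *Dkk1* was found in 59.5% of the 37 cells with *Sfrp5* (95% CI 42.1% to 75.2%) and in 79.8% of those without it (95% CI 70.8% to 87.04%). The intervals overlap in both VE and iXEN. The rank correlation of this pair was -0.31 over the iXEN cells and also -0.31 after removal of the number of genes, and -0.05 over the VE cells. *Lhx1* was likewise found with *Dkk1* in 4 iXEN cells against a product of 7.45, but in 19 VE cells against 19.2.

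Rank correlations centred within plates were weak for every pair of members in VE, from -0.05 (*Sfrp5* and *Dkk1*) to 0.16 (*Sfrp1* and *Dkk1*). Over all pairs of 9863 genes in these cells the median was 0.01 and the 95th percentile 0.12. *Sfrp1* and *Dkk1*, *Hhex* and *Lhx1* (0.14), and *Lhx1* and *Sfrp1* (0.12) lay at or above that percentile. The cells share plates, and no test was made.

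The genes most like each member in VE cells differed between the members. For *Hhex* they were *Maf* (rho 0.30), *Lrp2*, which encodes the endocytic receptor megalin (0.30), and *Has2* (0.26), and the lowest were *Cnn3*, *Dusp9* and *Aco1* (-0.23 to -0.22). For *Lhx1* they were *Has2*, a hyaluronan synthase, at 0.29, *Hmgb3* (0.25) and *Atp8a1* (0.24), against *Plaur*, *Lamc1* and *Bdp1* (-0.23 to -0.19). *Has2* was thus on both lists of transcription factors. For *Sfrp1* they included *Lefty2* (0.33) and the pluripotency-associated *Utf1* (0.33), against *Fabp3*, *Dusp9* and *Sat1* (each -0.33). For *Sfrp5* they were *Reep6* (0.38), *Pls1* and *Cited1* (0.36 each), against *Glipr2*, *Tmsb10* and *Pou5f1* (-0.34 to -0.33). For *Dkk1* they included *Zfp330* and *B3galnt1* (0.31 each), against *Aprt*, *Atox1* and *Slc16a1* (-0.25 to -0.22). These are the extremes of 9863 genes over the VE cells, chosen by rank, and are descriptions.

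Across 12 units (3 blocks on 3 plates and 3 cultures in 2D) the genes with the most similar mean levels followed the patterns above. *Stmn2*, *Ooep* and *Nanog* were nearest to *Sfrp1* (Pearson r 0.990, 0.984 and 0.976), and all of these were highest in ESC. Nearest to *Dkk1* were *2810459M11Rik*, *Scube2* and *Egflam* (0.993, 0.991 and 0.990), and nearest to *Hhex* were *Timp1*, *Frmd4a* and *Nckap1l* (0.968, 0.946 and 0.941). *Ostm1*, *Cltc* and *Gstt3* (0.937 to 0.905) were nearest to *Sfrp5*, and *Yeats4*, *Crb2* and *Has2* (0.888 to 0.876) to *Lhx1*. The units of a block are splits of 1 sample, so few of these 12 points are independent.

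**Figure D5:**
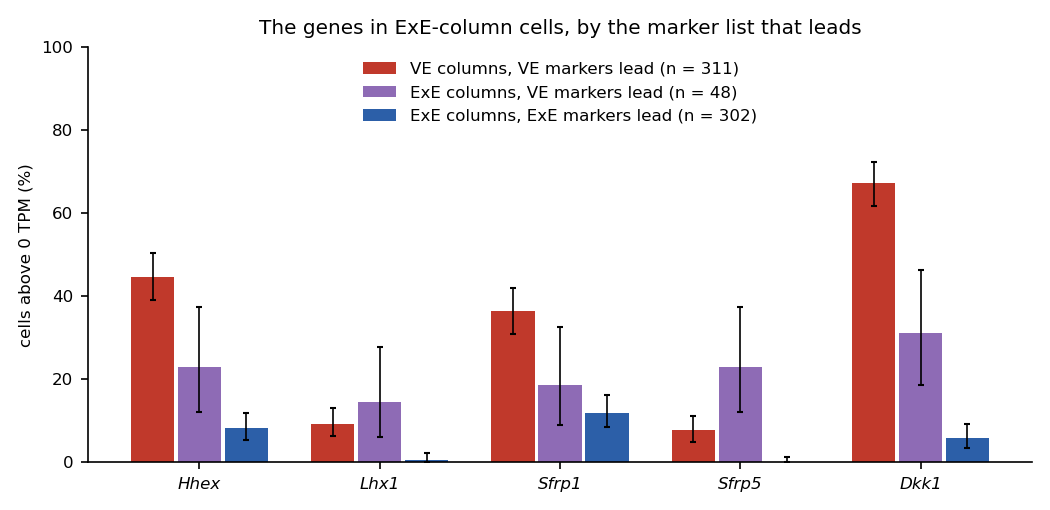
Share of cells above 0 TPM (percent, exact 95% intervals for counting error) for VE-column cells led by VE markers, ExE-column cells led by VE markers and ExE-column cells led by ExE markers. *Sfrp5* was in 11 of the 48 cells of the second kind and in 0 of the third, and *Lhx1* in 7 and 2.

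The 48 ExE-column cells led by VE markers also held 65.5% of the *Dkk1* sum of these columns, 29.2% of the *Hhex* sum and 18.05% of the *Sfrp1* sum. *Sfrp5* was in 22.9% of them and in 7.72% of the VE cells led by VE markers, whereas *Dkk1* was in 31.2% and 67.2%. The split was made after the values of the columns had been seen, and these cells were not reassigned.

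VE cells were also read by how many members they held. Cells with 0 or 1 had a median of 4934 genes, those with 2 had 5604.5, and those with 3 or more (62 cells) 6376.5. Of the 62, 36, 8 and 18 were on plates 3, 4 and 5. Every count below of genes higher or lower on all 3 plates therefore rests on 8 such cells on plate 4. The number of genes therefore moved with the number of members, and its part in what follows was not tested. The share of all genes that were higher or lower on all 3 plates in this split was not computed. The counts of listed genes below therefore have no background to be read against. Of 10 parietal endoderm genes, 8 had a lower mean on all 3 plates in cells with 3 or more members than in cells with 0 or 1. For *Stra6* and *Fst* the plate 4 mean of these 8 cells was 0. *Lama1* and *Lamb1*, laminin chains, averaged 2.57 and 5.03 TP10k against 3.63 and 6.43, and *Pth1r*, a receptor of parathyroid hormone-related protein, 1.44 against 2.17. *Sparc*, the most abundant of them, gave 60.6 and 60.3.

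Of the 10 other anterior visceral endoderm genes, 5 were higher on all 3 plates in cells with 3 or more members. *Nodal* was in 40.3% of them against 5.59%, *Fgf5* in 30.6% against 5.59% and *Lefty1* in 29.03% against 4.20%, with means of 0.202 and 0.0302, 0.188 and 0.0327, and 0.482 and 0.0264 TP10k. *Eomes* and *Fgf8* were the others, with *Fgf8* in 4.84% against 0%. Of 9 VE markers 4 were higher on all 3 plates, among them *Dab2*, *Cubn* and *Amn*, which act in endocytic uptake, with *Dab2* at 10.3 against 7.05 TP10k. *Sox17*, an endoderm transcription factor, was lower on all 3 plates, at 1.49 against 1.84, and *Gata4* averaged 2.88 against 2.94. Of the lists of Wnt antagonists, receptors and targets, 0, 1 and 1 genes were higher on all 3 plates, with *Fzd7* at 0.138 against 0.0793 and *Tcf7* at 0.0682 against 0.0246. In the same lists 1, 1 and 2 genes were lower on all 3 plates. *Axin2* averaged 0.0519 against 0.0584 TP10k, but its share went the other way, with 32.3% of cells against 14.7%. *Lef1* averaged 0.00474 against 0.0117, and the others were *Sfrp4* and *Fzd9*. On plate 5 the low class held *Lef1* at only 1.5e-09 and *Sfrp4* at 0.00039 TP10k, so their lower values there are near the floor.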

How the data were processed

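Single cells of RtL-embryoids and of 2D cultures were sorted into plates and sequenced after SMART-seq2 (75 bp single reads). The deposited values are TPM, which the authors obtained with kallisto (GRCm38, Gencode vM16, bcl2fastq 2.20 per the labels) and summed per gene. The table holds no read counts, 39 of 1931 wells hold no values, and 0 kept cells share an identical profile.

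Wells with 2500 or more genes above 0 TPM entered the analysis and were rescaled to a sum of 10000 (TP10k). Plate columns gave the blocks, which the labels do not name. Members and lists were chosen with earlier results of these data known. A marker check by summed ln(TP10k + 1), planned first, put 30.2% of VE cells and 42.8% of ExE cells under another list. The check with scaled markers was added after seeing this. Named genes were the members, the listed genes, and the 3 most and 3 least like each member, of which some are not reported here. Calls needed a 2-fold difference on every plate (pseudocount 0.1). No doublet caller was run. Calls and correlations were checked on data with known changes. Scripts ran in Python 3.11.15 with pandas 2.3.3, numpy 2.4.6, matplotlib 3.10.9 and scipy 1.17.1. Positions came from Gencode vM21 and promoters from RefSeq, with 4 of 5 members matched.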

Additional observations from a re-analysis of the deposited data

Results flagged for a closer look

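For *Hhex* and *Sfrp1*, the 3D cells of different lineages differed from their 2D cultures in opposite directions on every plate. This difference was not tested, since each culture is 1 sample and the plates are technical splits. The mean of *Hhex* was higher in VE than in iXEN by 0.187 TP10k and higher in ExE than in iTSC by 0.0243, but Epi minus ESC was -0.0601. For *Sfrp1*, VE minus iXEN was 0.0938 and ExE minus iTSC 0.0302, and Epi minus ESC was -0.308. In ExE-column cells led by ExE markers the means were 0.0389 and 0.0454, against 0.0227 and 0.0187 in iTSC. The shares of cells went the other way, with *Hhex* in 10.2% of ExE cells against 19.9% of iTSC and *Sfrp1* in 13.03% against 29.8%. The median number of genes per cell was lower in each 3D block than in its 2D culture.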

How the results depend on the processing

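Over the alternatives, 45 values moved beyond the plate spread, the counting interval or 1.5 times the count of called genes, 4 changed sign and all other values stayed within these bounds. The cause was not tested. The mean and share of each member in VE stayed within it at a minimum of 4000 or 1000 genes per cell, and the shares also with detection at 1 TPM. Without cells led by another list, by unscaled sums (planned) and by scaled markers (added after seeing the data), the mean of *Sfrp1* in VE was 0.0963 and 0.101 TP10k, and its log2 ratio of VE to iXEN 2.99 and 3.07. That ratio was 2.71 at a minimum of 1000 genes and 2.92 from means of ln(TP10k + 1). The log2 ratio of VE to iXEN for *Sfrp5* turned to 0.24 with unscaled sums. The log2 ratio of VE to ExE for *Dkk1* was 5.56 and 4.85 in these settings, and with scaled markers it was 3.00 for *Hhex* and 4.01 for *Lhx1*. The log2 ratio of VE to Epi for *Dkk1* was 8.06 at a minimum of 4000 genes, 7.34 with scaled markers and 7.39 on TPM as deposited. Leaving out 1 plate at a time, the share of VE cells with *Hhex* ran from 34.8% to 50%, with *Sfrp1* from 29.9% to 40.4%, with *Dkk1* from 60.3% to 70.2%, with at least 2 members from 44.1% to 60.6% and with at least 3 from 12.7% to 25.96%, lowest without plate 3 and highest without plate 4 in each case. The log2 ratio of VE to ExE for *Lhx1* was -0.41, 3.71 and -0.15 without plates 3, 4 and 5, and that of VE to iXEN for *Sfrp5* ran from -0.63 (without plate 5) to 0.033 (without plate 3). The share of genes called higher against iXEN ran from 0.482% (without plate 5) to 0.662% (without plate 3). At pseudocounts of 0.01 and 1, in place of 0.1, VE against Epi gave 10.6% and 1.56% of genes higher (6.13% at 0.1) and 9.904% and 0.694% lower (4.91%), against ExE 5.05% and 0.738% higher (2.81%) and 9.099% and 0.508% lower (3.98%), and against iXEN 1.31% and 0.0653% higher (0.416%) and 2.89% and 0.237% lower (0.98%). At a pseudocount of 1, 0 members were called higher against Epi and 0 against ExE, and at 0.01 *Sfrp1*, 1 member, was called higher against iXEN. At a minimum of 1000 genes 1 member, *Dkk1*, was called higher against Epi. *Sfrp1* was the 1 member called lower against Epi at minimums of 4000 and 1000 genes, at a pseudocount of 0.01, in both marker settings and without plate 4, and 0 were called lower without plate 3 or plate 5. No paired analysis was possible because each condition is 1 sample and no result comes from a test. Read numbers are unknown, and *Lhx1* and *Sfrp5* rest on few cells.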
